A study of Mus musculus with 6 samples.

Results

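The genes of the hyaluronan matrix and its crosslinker pentraxin 3 were analyzed in stromal cells of the mouse omentum, a fatty tissue of the peritoneal cavity that carries lymphoid clusters called milky spots. The set was defined by gene name, with earlier results of these data already known. Member shares set beside those of all symbols below are therefore descriptive only. The set holds 10 of the 23352 gene symbols in the data: *Has1*, *Has2*, *Hyal1*, *Hyal2*, *Tnfaip6*, *Ptx3*, *Vcan*, *Hapln1*, *Cd44* and *Lyve1*. All 10 were found, and 9 of them reached 1 FPKM (fragments per kilobase of transcript, corrected for library depth and for gene length) in at least 1 population.

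Omental cells of wild-type C57BL/6 mice were digested, sorted into 6 populations and sequenced as 1 RNA-seq library each, without replicates, and no p-value was computed. All populations were negative for the leukocyte marker CD45. P1, P2 and P3 were positive for CD140a and CD105, with high, intermediate and low activity of aldehyde dehydrogenase (ALDH), respectively. P4 and P5 were CD140a+ and CD105-, with intermediate and low ALDH activity, and P6 was CD140a low with ALDH activity. The study asked what distinguishes P1, the fibroblastic reticular cells that make retinoic acid in milky spots. A library here stands for a sort gate, and the number of mice pooled for it is not given in the sources used here. In such bulk libraries, fewer cells of a type and less RNA per cell cannot be told apart.

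The genes of the surface markers followed the gate labels. *Pdgfra*, which encodes CD140a, was at 117 to 154 FPKM in P1 to P5 and at 5.36 FPKM in P6. *Eng*, which encodes CD105, was at 42.6 to 52.4 FPKM in P1 to P3 and at no more than 0.728 FPKM in the other populations, and *Ptprc*, which encodes CD45, did not exceed 0.755 FPKM. *Aldh1a2*, a source of ALDH activity, was at 469, 78.8 and 134 FPKM in P1 to P3, 285 and 145 in P4 and P5 and 209 in P6. It was highest in P1, but P2, a gate of intermediate ALDH activity, had the lowest level, below both gates of low activity. The depth estimated from the steps of low FPKM values was 37.05 M reads in P6 and between 53.35 and 61.7 M reads in P1 to P5. Mesothelial markers summed to 73.0 to 148 FPKM in P1 to P3, 757 to 933 FPKM in P5 and P4 and 2938 FPKM in P6, with 9 of the 10 listed markers present in the data.

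Hyaluronan is a long sugar polymer that hyaluronan synthases build at the plasma membrane from a pair of activated sugars and push out of the cell. The protein TSG-6, the product of *Tnfaip6*, transfers heavy chains of serum inter-alpha-inhibitor onto this polymer, and pentraxin 3 binds the modified polymer and links its strands, as is well known from the matrix around the ovulating oocyte. Versican and link proteins bind along the polymer, CD44 and LYVE1 hold it at the cell surface, and hyaluronidases cut it.

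The 3 genes on which the results turn, *Ptx3*, *Tnfaip6* and *Has1*, were highest in the same population and are shown by the reference sequence around their transcription start. Each sequence is from RefSeq (GRCm38.p6), runs from 250 bases before to 50 bases after the annotated start and reads 5′ to 3′ on the gene's strand. Capitals mark matches on either strand to the CCAAT box (CCAAT), the AP-1 site (TGANTCA), a half-site of nuclear receptors (AGGTCA) and the NF-kB consensus, searched by its name.
Ptx3, chr3:66219637-66219936, plus strand: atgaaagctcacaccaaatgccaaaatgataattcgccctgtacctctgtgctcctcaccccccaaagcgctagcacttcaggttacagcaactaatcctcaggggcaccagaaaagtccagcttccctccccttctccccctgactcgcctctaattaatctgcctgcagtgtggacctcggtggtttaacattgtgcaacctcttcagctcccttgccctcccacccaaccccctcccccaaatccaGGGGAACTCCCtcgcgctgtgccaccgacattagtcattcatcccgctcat
Tnfaip6, chr2:52037863-52038162, plus strand: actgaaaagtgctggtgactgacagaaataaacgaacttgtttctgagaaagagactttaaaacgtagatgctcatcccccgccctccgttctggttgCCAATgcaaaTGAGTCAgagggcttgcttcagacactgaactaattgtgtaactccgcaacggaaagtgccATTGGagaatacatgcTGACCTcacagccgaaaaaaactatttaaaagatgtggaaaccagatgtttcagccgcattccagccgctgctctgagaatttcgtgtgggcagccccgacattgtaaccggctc
Has1, chr17:17855139-17855438, minus strand: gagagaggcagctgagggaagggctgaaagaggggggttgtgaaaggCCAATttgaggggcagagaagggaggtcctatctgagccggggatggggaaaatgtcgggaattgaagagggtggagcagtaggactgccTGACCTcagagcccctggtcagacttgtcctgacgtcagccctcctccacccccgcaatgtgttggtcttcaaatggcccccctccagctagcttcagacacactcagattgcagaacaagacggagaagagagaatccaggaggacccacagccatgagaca

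The capitals of *Ptx3* are 2 overlapping NF-kB matches at the RefSeq start site. Gene coordinates given below are from another annotation, GENCODE M21, in which *Ptx3* begins at 66219910. Positions relative to a start thus depend on the annotation. NF-kB is a transcription factor family activated by inflammatory signals, and 8.46% of all 32851 promoter windows of this length held a match. Among the other members, *Hyal2*, which was not highest in P1, also held an NF-kB match, and *Vcan*, which was highest in P1, held none. In *Tnfaip6* the capitals are, in order, a CCAAT box, an AP-1 match (present in 7.81% of all windows), a second CCAAT box on the other strand and a nuclear receptor half-site (16.3% of all windows). *Has1* held a CCAAT box, as 37.4% of all windows did, and a nuclear receptor half-site. The TATA box letters TATAAA, found in 13.6% of all windows, were in none of the 8 members that had an entry, and *Has2* and *Lyve1* had none. A match is a string of letters only and was not tested as a binding site.

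*Has1*, a synthase of the polymer, was the most abundant member in every population. It lies on chromosome 17 from 17843323 to 17855205 on the minus strand (GRCm38). Its annotated transcripts together hold 7 distinct exon intervals, a count that can exceed the exon number of any single transcript. Its level was 441, 278 and 229 FPKM in P1 to P3, 230 and 151 in P4 and P5 and 60.5 in P6. P1 was highest and P6 lowest, and P3 and P4 did not differ beyond counting error, with a ratio of P4 to P3 of 1.004 (95% interval 0.986 to 1.02). Intervals here and in what follows cover the counting error of estimated reads only, not the spread between animals or sorts. In P1 *Has1* ranked 163rd from the top of all symbols, within the highest 0.698%. The ratio of P1 to the next population, P2, was 1.58 (1.56 to 1.61), and that of the lowest CD140a+ population, P5, to P6 was 2.49 (2.41 to 2.57).

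*Has2*, the synthase that is needed for heart development in the embryo, followed another order. It spans 56665627 to 56694539 on chromosome 15, minus strand. Its level was 7.30, 5.13 and 7.24 FPKM in P1 to P3, 5.28 and 8.97 in P4 and P5 and 0.174 in P6. The 5 CD140a+ populations lay within 1.75-fold of each other, and P6 stood far below them, at about 26.0 estimated reads. P5 was highest as deposited, but P1 was highest when the libraries were scaled to *Gapdh*. P2, the lowest CD140a+ population, was 29.6-fold above P6 (20.1 to 45.4). The antisense gene *Has2os*, listed as *Has2as*, shares 4.30% of the exon bases of *Has2* and was at 0.764 to 3.15 FPKM. *Has3*, the remaining synthase, did not exceed 0.631 FPKM.

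Within each library, where dividing by a common factor has no effect, *Has1* made up 94.0% to 98.7% of the summed FPKM of the 3 synthases. The lowest of these shares was in P5 and the highest in P6. *Has1* was thus the main synthase transcript in every population, including the one in which *Has2* was nearly lost.

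**Figure D1:**
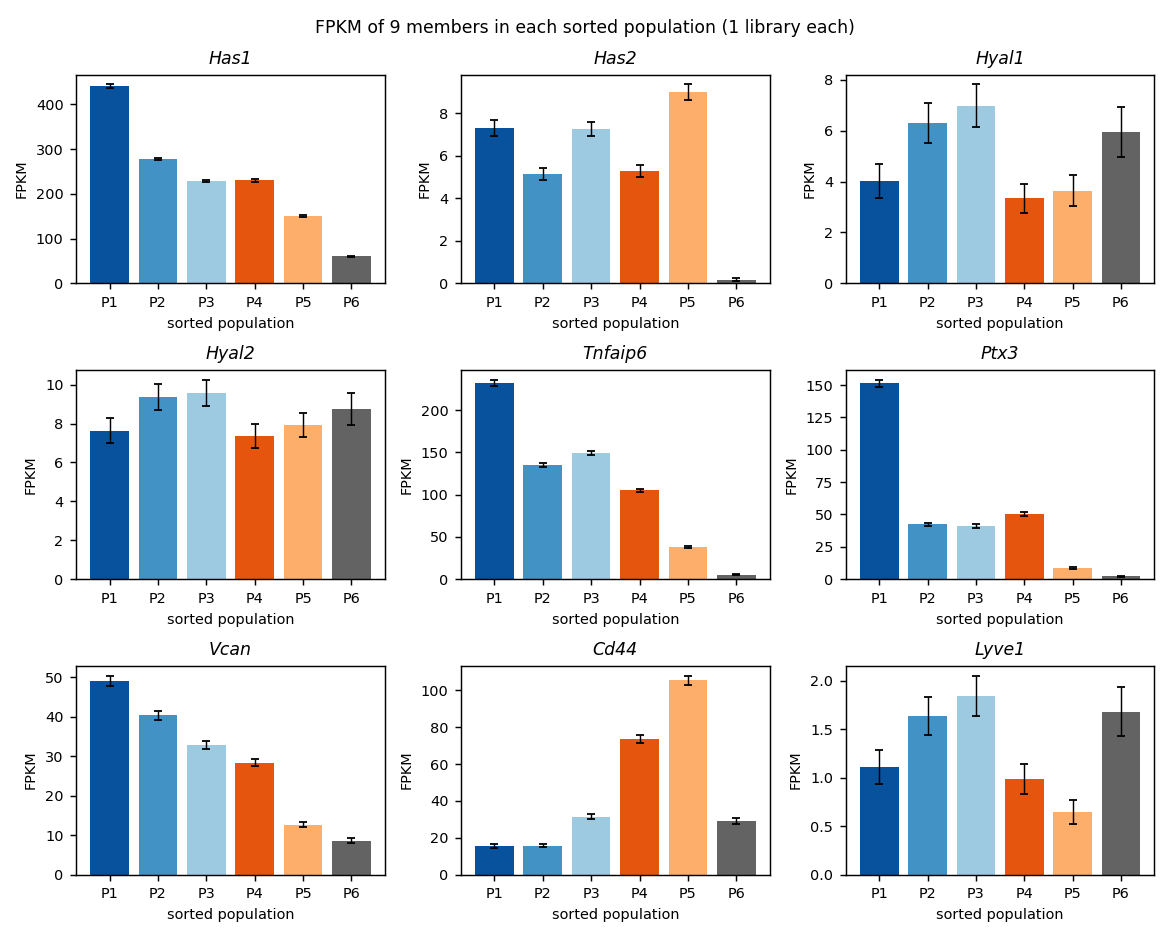
FPKM (linear axis from 0) of 9 members in the 6 sorted populations, 1 library each, with bars in blue for CD105+, orange for CD105- and gray for CD140a low cells and error bars for the 95% counting error of the estimated reads. *Has1*, *Tnfaip6*, *Ptx3* and *Vcan* are highest in P1 and lowest in P6, *Cd44* is highest in P5, and *Hyal2* hardly differs between the populations.

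The hyaluronidases that cut the polymer were below 10 FPKM in all populations, *Hyal2* at an even level and *Hyal1* at an uneven one. *Hyal2*, whose product is anchored at the cell surface, lies at 107567945 to 107572779 on chromosome 9, plus strand. It was at 7.63, 9.35 and 9.56 FPKM in P1 to P3, 7.36 and 7.93 in P4 and P5 and 8.74 in P6. No pair of neighbours in the order of the levels differed beyond counting error. Populations further apart in this order did, as the highest, P3, was 1.30-fold above the lowest, P4 (1.17 to 1.45). With the scaling to *Gapdh* the highest was P2 and the lowest P5.

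*Hyal1*, the lysosomal enzyme, begins 4148 bases beyond the end of *Hyal2*, from 107576927 to 107581710. Its level was 4.03, 6.31 and 6.98 FPKM in P1 to P3, 3.34 and 3.65 in P4 and P5 and 5.96 in P6. P3, P2 and P6 formed an upper group and P1, P5 and P4 a lower group, and neighbours inside each group did not differ beyond counting error. This level is uncertain, because 50.8% of the annotated exon bases of *Hyal1* are shared with *Naa80*, which reads on the same strand and is listed as *Nat6* at 6.37 to 12.3 FPKM. *Nat6* was also the gene with the pattern nearest to *Hyal1* among 9790 symbols. How the authors' counting split the shared reads was not tested.

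The sum of the synthases over the sum of *Hyal1* and *Hyal2* was 38.4, 18.1 and 14.3 in P1 to P3, 22.1 and 13.8 in P4 and P5 and 4.17 in P6. It was highest in P1 and lowest in P6, a 9.22-fold range, while *Has1* alone spanned 7.28-fold, *Hyal1* 2.09-fold and *Hyal2* 1.30-fold. *Hyal3* did not exceed 0.348 FPKM in any population. *Cemip*, a hyaluronan-binding protein needed for breakdown outside the cell, did not exceed 0.0643 FPKM. *Tmem2*, a cell surface protein linked to the same breakdown, was at 0.757, 1.17 and 2.21 FPKM in P1 to P3, 4.44 and 6.32 in P4 and P5 and 5.13 in P6. Its order was close to the reverse of that of *Has1* among the CD140a+ populations. P3 was 0.349 times the level of P5 (0.323 to 0.378).

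*Tnfaip6* encodes TSG-6, the enzyme of heavy chain transfer, and lies at 52038009 to 52056686 on chromosome 2, plus strand. Its level was 233, 135 and 149 FPKM in P1 to P3, 105 and 38.1 in P4 and P5 and 4.83 in P6. P1 was highest, the 3 CD105+ populations all lay above both CD105- populations, and P6 was lowest. Each neighbouring pair in this order differed beyond counting error, down to the 7.89-fold step (6.97 to 8.97) from P5 to P6. P1 was 1.56-fold above the next population, P3 (1.52 to 1.59).

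*Ptx3* encodes the long pentraxin 3, a soluble molecule of innate immunity that binds microbes, complement proteins and the hyaluronan matrix. It lies on chromosome 3 from 66219910 to 66225805 on the plus strand, with 4 distinct exon intervals over its annotated transcripts. This locus is inside an intron of *Veph1*, whose own level was no more than 0.105 FPKM. *Ptx3* was at 151, 42.4 and 41.0 FPKM in P1 to P3, 50.4 and 8.50 in P4 and P5 and 2.15 in P6. P1 stood alone at the top, P2 and P3 did not differ beyond counting error, and P5 and P6 were far lower. P4 was second as deposited, with a ratio of P2 to P4 of 0.840 (0.807 to 0.875), but with the scaling to *Gapdh* this ratio was 1.17 and P2 was second. The drop from P3 to P5 was 4.82-fold (4.49 to 5.19) and that from P5 to P6 was 3.95-fold (3.30 to 4.78). Over all populations *Ptx3* spanned 70.4-fold, the widest range of any member with at least 1 FPKM in all populations.

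The ratio of *Ptx3* to *Tnfaip6* within a library was 0.651, 0.314 and 0.275 in P1 to P3, 0.480 and 0.223 in P4 and P5 and 0.446 in P6. *Ptx3* was the lower of the pair in every population, and P1 was the population in which it came nearest to *Tnfaip6*. Set against *Has1*, *Tnfaip6* was at 0.253 to 0.650 in P1 to P5 and at 0.0798 in P6, so that *Tnfaip6* fell further than *Has1* in the CD140a low cells.

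The inter-alpha-inhibitor genes, which encode the heavy chains that TSG-6 transfers and their carrier, were listed with these crosslinkers. *Itih5*, a heavy chain relative, was at 157, 178 and 171 FPKM in P1 to P3, 152 and 140 in P4 and P5 and 8.86 in P6. It was even among the CD140a+ populations and 15.8-fold below the lowest of them in P6. The other 5 genes of this group, *Itih1* to *Itih4* and *Ambp*, did not exceed 1.22 FPKM, the value of *Itih2* in P2. *Itih2* was picked here after its values were seen.

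Versican, the product of *Vcan*, is a large proteoglycan that binds hyaluronan, and its gene lies on chromosome 13 from 89655312 to 89742509, minus strand. *Vcan* was at 49.1, 40.3 and 32.8 FPKM in P1 to P3, 28.3 and 12.6 in P4 and P5 and 8.56 in P6. The level stepped down from P1 to P6 in the order of the gates, and each step was larger than counting error. The largest step was the 2.25-fold drop from P4 to P5 (2.12 to 2.38). Relative to *Has1* in the same library, *Vcan* ran only from 0.0838 in P5 to 0.145 in P2.

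*Hapln1*, the link protein that fixes versican to the polymer, starts at 89539796 on the same chromosome and ends 43660 bases from *Vcan*. It was listed at 0.0200 FPKM in P2 and 0.0140 FPKM in P4, about 6.80 and 4.54 estimated reads, and at 0 in P1, P3, P5 and P6. A count of 0 allowed up to 0.00882 to 0.0147 FPKM in these libraries. No population had a level of this gene that could be compared. None of the 6 other listed lecticans and link proteins reached 1 FPKM in any population, so *Vcan* was the single gene of its list at that level.

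The versican proteases of the ADAMTS family were present in the same cells. Of the 6 listed, 5 reached 1 FPKM somewhere. *Adamts1* was at 179 to 311 FPKM in P1 to P5 and at 42.0 FPKM in P6. *Adamts4* was at 55.8, 62.5 and 67.6 FPKM in P1 to P3, 24.5 and 21.1 in P4 and P5 and 1.60 in P6, and *Adamts15* at 70.7, 80.2, 68.4, 34.0, 20.1 and 11.5 FPKM in the same order. Both were higher in CD105+ than in CD105- cells, by 2.56-fold (2.47 to 2.64) for *Adamts4* and 2.36-fold (2.31 to 2.41) for *Adamts15* at intermediate ALDH activity. *Adamts9* went the other way for P1, at 1.48 FPKM there against 5.15 to 13.1 FPKM in the other populations.

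*Cd44* encodes the main cell surface receptor for hyaluronan and lies on chromosome 2 from 102811141 to 102901665, minus strand. Its annotated transcripts together hold 32 distinct exon intervals. Its level was 15.6, 15.7 and 31.3 FPKM in P1 to P3, 73.8 and 106 in P4 and P5 and 28.9 in P6. The CD105- populations were highest and P1 and P2 lowest, with a ratio of P2 to P1 of 1.003 (0.918 to 1.10), and the order of these lowest populations turned under 3 of the 4 other scalings. P5 was 1.43-fold above P4 (1.38 to 1.49). *Cd44* relative to *Has1* ran from 0.0355 in P1 to 0.701 in P5, a 19.8-fold range that multiplying a library by a factor leaves as it is, though quantile normalization does not. *Cd44* was thus the member whose order was most nearly the reverse of that of the synthase.

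*Ezr*, which encodes ezrin, a linker of CD44 to the actin skeleton, was at 10.1, 10.7 and 24.1 FPKM in P1 to P3, 165 and 169 in P4 and P5 and 168 in P6. It shared with *Cd44* the low level in P1 and P2 and the high level in the CD105- populations, but unlike *Cd44* it was as high in P6. The mesothelial markers were higher in the same populations: *Krt19* was at 5.33 to 9.18 FPKM in P1 to P3, 197 and 116 in P4 and P5 and 620 in P6. In P6, where the summed mesothelial markers were highest, *Cd44* was at 28.9 FPKM, below P4 and P5. The part of mesothelial RNA in the *Cd44* levels was not tested.

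*Lyve1* encodes a hyaluronan receptor known from lymphatic endothelium and from some tissue macrophages, and spans 110850607 to 110863239 on chromosome 7, minus strand. It was at 1.11, 1.64 and 1.85 FPKM in P1 to P3, 0.985 and 0.645 in P4 and P5 and 1.68 in P6, on 107 to 301 estimated reads. P3, P6 and P2 did not differ beyond counting error, nor did P1 and P4, and P5 was lowest. The defining markers of lymphatic endothelium were near 0, as none of the 6 listed reached 1 FPKM and their sum was 0.236 to 0.627 FPKM. The 11 listed macrophage markers summed to 21.1 to 62.3 FPKM, lowest in P5 and highest in P6, and 4 to 8 of them reached 1 FPKM in each population.

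Among these, *C1qa*, a complement gene of macrophages and a ligand of pentraxin 3, was at 2.91, 4.61 and 5.57 FPKM in P1 to P3, 2.44 and 1.71 in P4 and P5 and 4.45 in P6. It had the same highest and the same lowest population as *Lyve1*, but other markers of the list did not, with *Mrc1* highest in P5 at 3.83 FPKM and *Csf1r* highest in P6 at 11.6 FPKM. *C1qa* was set beside *Lyve1* with these values known. The ratio of *Lyve1* to *C1qa* within a library ran only from 0.331 in P3 to 0.404 in P4, a 1.22-fold range, while *Lyve1* itself spanned 2.86-fold. The macrophage share of the *Lyve1* reads was not tested.

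**Figure D2:**
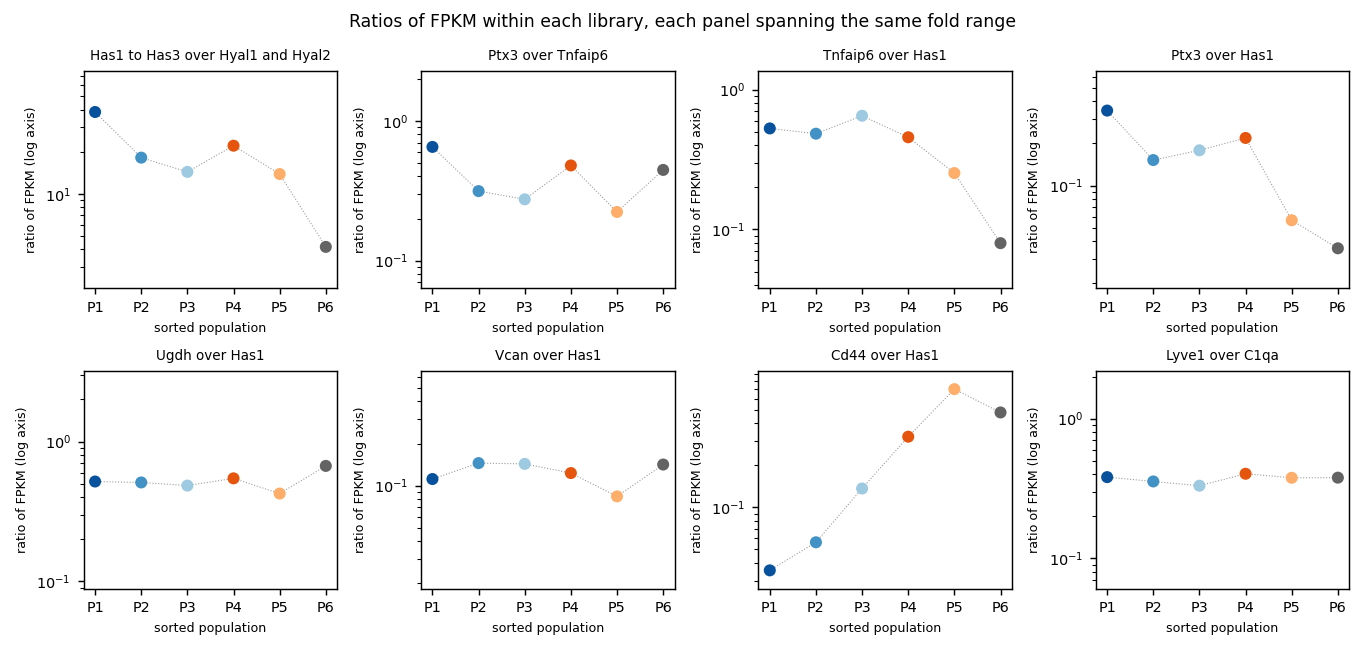
Ratio of FPKM between genes of the same library (log axis, each panel spanning the same fold range) in the 6 sorted populations, a measure that multiplying a library by a factor leaves as it is, though quantile normalization does not. The synthases over *Hyal1* and *Hyal2* run from 38.4 in P1 to 4.17 in P6 and *Cd44* over *Has1* from 0.0355 to 0.701. *Lyve1* over *C1qa* stays between 0.331 and 0.404, but *C1qa* was picked with these values known. The macrophage markers *Mrc1* and *Csf1r* were highest in other populations than *Lyve1*.

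The contrasts between adjacent gates were counted with a fixed rule, a ratio of at least 2 with at least 1 FPKM in the higher library. The first contrast was between high and intermediate ALDH activity in CD105+ cells, the question of what marks P1. *Ptx3* was the member past this rule, 3.58-fold higher in P1 than in P2 (3.46 to 3.70), as 1.05% of 11803 symbols were higher in P1. No member was past it in the lower direction, where 4.50% of symbols were. *Tnfaip6* was 1.73-fold higher in P1 (1.69 to 1.77) and *Has1* 1.58-fold, short of the rule. The median log2 ratio was 0.28 over the 9 members tested and -0.05 over all symbols. When P1 was set against each of the 5 other populations at once, *Ptx3* was again past the rule, 3.004-fold above the next population, as 0.418% of 12904 symbols were. The study had already reported *Ptx3* as selective for P1, by RNA-seq of these populations with a 2-fold rule and by quantitative PCR. It also reported *Ptx3* as enriched in an *Aldh1a2*+ fibroblast cluster of earlier single-cell data from omental stroma. The calls of *Ptx3* in P1 thus repeat a known result and are not independent of it. No member was lower than each other population by this rule, as 1.36% of symbols were.

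Between intermediate and low ALDH activity in CD105+ cells, P2 against P3, no member was past the rule, where 1.16% of 11980 symbols were higher in P2 and 2.75% lower. *Cd44* was nearest, at 0.5002 times in P2 (0.464 to 0.539), just short of it. The median log2 ratio of the members was -0.14, against -0.03 over all symbols. *Ptx3* differed by 1.03-fold (0.990 to 1.08), with an interval that included 1.

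The same step of ALDH activity in CD105- cells, P4 against P5, moved more members. *Ptx3* was 5.93-fold higher in P4 (5.52 to 6.38), *Tnfaip6* 2.76-fold (2.65 to 2.87) and *Vcan* 2.25-fold, so that 3 of the 8 members tested were higher, against 4.17% of 12022 symbols. None was lower, against 1.57% of symbols. *Has1* was 1.53-fold higher and *Has2* was 0.589 times as high in P4 (0.549 to 0.631). The members had a median log2 ratio of 0.25 and all symbols -0.04.

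CD105+ and CD105- cells were compared at each ALDH level. At intermediate activity, P2 against P4, *Cd44* was past the rule, 0.212 times as high in CD105+ cells (0.199 to 0.227), in the direction in which 7.94% of 12181 symbols were. No member was higher in CD105+ cells by the rule, against 5.10% of symbols, and *Hyal1* was nearest at 1.89-fold (1.52 to 2.36). *Hyal1* was past the rule under 3 of the 4 other scalings, at 2.0005-fold with the median of ratios, 2.06-fold with quantile normalization and 2.62-fold with *Gapdh*. The median log2 ratio was 0.34 over members and -0.08 over all symbols.

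At low activity, P3 against P5, 4 of the 9 members tested were higher in CD105+ cells, against 7.55% of 12152 symbols. They were *Ptx3*, *Tnfaip6* at 3.92-fold (3.77 to 4.06), *Vcan* at 2.60-fold (2.46 to 2.76) and *Lyve1* at 2.86-fold (2.29 to 3.61). The call of *Lyve1* was lost when 1 FPKM was added to both libraries, which gave 1.73-fold. *Cd44* was 0.297 times as high (0.282 to 0.311), in the direction of 6.50% of symbols. The members' median log2 ratio was 0.92, against -0.09 over all symbols. Contrasts that share a library, such as P2 against P3 and P2 against P4, are not independent of each other.

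**Figure D3:**
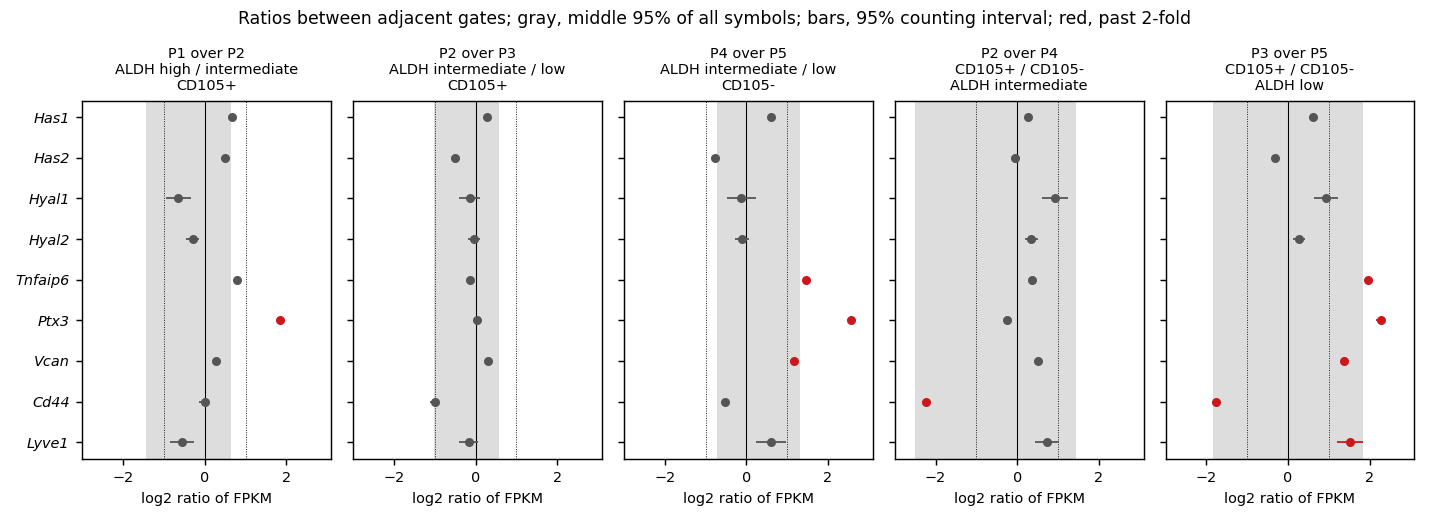
log2 ratio of FPKM for 9 members in 5 contrasts between adjacent sort gates, with 95% counting intervals as bars, the middle 95% of all symbols tested in gray, 2-fold lines dotted and members past the rule in red. *Ptx3* and *Tnfaip6* lie beyond the gray band in P1 over P2, P4 over P5 and P3 over P5, *Has1* does so in P1 over P2, and *Has2* lies just below it in P4 over P5. *Cd44* is past the rule toward CD105- cells at both ALDH levels but lies within the gray band in both.

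P6 was below all other populations by the rule for 4 of the 9 members tested, where 3.43% of 12904 symbols were. These were *Ptx3*, *Tnfaip6*, *Has1* and *Has2*, that is, both crosslinker genes and both synthases at 1 FPKM or more. No member was higher in P6 than in each other population, although 6.45% of symbols were. The gene of the sort marker was lower there as well, with *Pdgfra* at 5.36 FPKM, and the fibroblast genes *Dpt* and *Lum* were at 8.70 and 6.19 FPKM in P6 against at least 264 and 56.4 FPKM elsewhere. In contrast, the collagen genes *Col1a1* and *Col1a2* were at 1735 and 1153 FPKM in P6. Pancreatic acinar markers summed to 1643 FPKM in P6 and 1109 FPKM in P4, against 3.85 FPKM in P1, and their part in these differences was not tested. A list of inflammatory genes, including *Il6* and *Ptgs2*, summed to 290 FPKM in P6 and to 782 to 1130 FPKM in the other populations. Each gene of this list was lowest in P6 except *Nfkbia*, which was at 165 FPKM in P6 and lowest in P2 at 150 FPKM. Immediate-early genes, which respond to tissue digestion, summed to 9588 to 11130 FPKM in all populations. The part of digestion in the levels of *Ptx3* and *Tnfaip6* was not tested.

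The other genes of the pathway were counted over lists of 61 genes that are not members, all present in the data. Of the 33 tested in P1 against P2, none was higher in P1, where 1.05% of all symbols were, and 5 were lower, where 4.50% were. In P2 against P3, 1 of 33 was higher and 2 lower, beside 1.16% and 2.75% of all symbols. In P4 against P5, 3 of 32 were higher and none lower, beside 4.17% and 1.57%. In P2 against P4, 4 of 33 were higher and 3 lower, beside 5.10% and 7.94%. In P3 against P5, 7 of 31 were higher and 2 lower, beside 7.55% and 6.50%. Of 33, 4 were below all others in P6, where 3.43% of symbols were, and 1 was below all others in P1, where 1.36% were, while none was above all others in either.

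The enzymes that supply the sugars of hyaluronan formed 1 of these lists. Of its 7 genes, 6 were highest in P1, as 14.2% of all symbols with at least 1 FPKM were. None of the 7 was past the rule in P1 against P2 or in P1 against all others. For *Ugp2* the lead was small, at 48.5 FPKM in P1 against 46.6 in P4. *Gfpt2*, an isoform of the rate-limiting enzyme of the hexosamine pathway, was at 465, 271 and 188 FPKM in P1 to P3, 252 and 112 in P4 and P5 and 36.6 in P6. P1 was highest and P6 lowest, as for *Has1*, and P4 was 2.26-fold above P5 (2.22 to 2.30). Its relative *Gfpt1* stayed between 18.2 and 21.2 FPKM, so that *Gfpt2* over *Gfpt1* ran from 24.9 in P1 to 1.92 in P6.

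*Ugdh*, which makes UDP-glucuronic acid, was at 228, 142 and 111 FPKM in P1 to P3, 126 and 63.9 in P4 and P5 and 40.5 in P6. *Uap1*, which makes UDP-N-acetylglucosamine, was at 126, 71.4, 50.5, 62.2, 31.6 and 30.3 FPKM in the same order. Both had their highest level in P1 and, as deposited, their lowest in P6. With the scaling to *Gapdh*, *Uap1* was lowest in P5, at 25.1 against 29.0 in P6. Neither was past the rule in any contrast between adjacent gates, though P4 was just short of 2-fold above P5 for both. *Ugdh*, *Uap1*, *Ugp2* and *Gfpt1* are named here after their values were seen. *Ugdh* over *Has1* within a library ran from 0.425 in P5 to 0.669 in P6, a 1.58-fold range, while *Has1* itself spanned 7.28-fold.

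**Figure D4:**
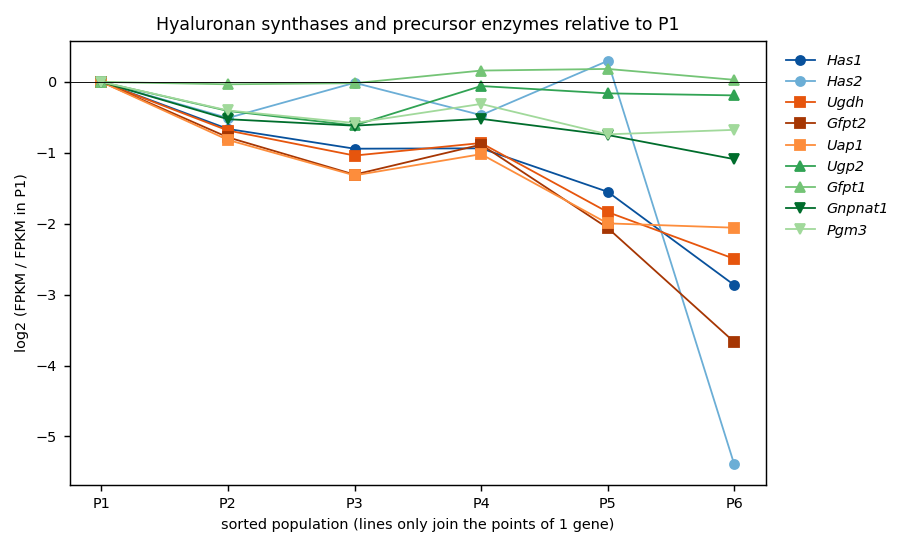
log2 of FPKM relative to P1 for *Has1*, *Has2* and the 7 enzymes of the sugar precursors in the 6 sorted populations, where lines join the points of 1 gene. *Ugdh*, *Gfpt2* and *Uap1* lie below their P1 level in P2 to P6 as *Has1* does, *Gfpt1* stays near its P1 level, and *Has2* drops furthest in P6.

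Genes of proteins that bind pentraxin 3 were listed too. Of these, *C1qa* was 3.26-fold higher in P3 than in P5 (2.55 to 4.17), beside the macrophage markers given above. Among the 7 listed pentraxins *Ptx3* was the most abundant in P1 to P5.

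Genes whose pattern over the 6 populations came nearest to each member were found among 9790 symbols with at least 5 FPKM, by the root mean square difference of centred log2(FPKM + 0.1) profiles, where 0 is the same pattern. For *Ptx3* they were *Gsc* (0.32), *Phex* (0.34) and *Ism1* (0.35), with *Phex* at 18.4 FPKM in P1 and *Gsc* at 36.05. For *Tnfaip6* they were *P2ry1*, *P2ry2* and *Pcdh19* (0.18 to 0.19). *Ptx3* was at place 90 in closeness to *Tnfaip6*, and *Tnfaip6* at place 25 in closeness to *Ptx3*, of 9789 other symbols. For *Has1* the nearest were *C1qtnf6* (0.13), *Prokr1* (0.17) and *Sms* (0.17), and *Ugdh* took place 9.

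For *Vcan* the nearest genes were *Lamc1* (0.10), which encodes a laminin chain, *Tspan6* (0.11) and *Slc16a9* (0.12). For *Cd44* they were *Acsl4* (0.20), *Sdsl* (0.20) and *Ccnd1* (0.23), the gene of cyclin D1. *Has2* had *Tubb3* (0.33), the sort marker gene *Pdgfra* (0.35) and *Tnfaip2* (0.38). *Hyal1* had *Nat6* (0.09), *Slc25a29* (0.11) and *Rhobtb1* (0.12), and *Hyal2*, with its even level, *Mier3*, *Wdr4* and *Nat10* (0.03 to 0.04). Without P6, none of the 3 nearest genes was shared for 7 of the 8 members ranked, and 1 was shared for *Hyal2*. With a pseudocount of 1 in place of 0.1, none was shared for *Ptx3*, *Tnfaip6* and *Has2*, 1 was shared for *Has1*, *Vcan* and *Cd44*, and all 3 were shared for *Hyal1* and *Hyal2*.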

How the data were processed

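RNA-seq was analyzed for 6 sorted omental populations, 1 library each. The authors deposited FPKM values per gene symbol, from single-end reads of 76 bp. The submitters' processing notes name TopHat2 2.0.7, Cufflinks 2.1.1 and mm10, the build of GRCm38. The annotation, strand setting and pooling of mice are not given in the sources used here. Rows sharing a symbol (495 of 23847) were summed, and no further scaling was applied. Depth was estimated from the steps of low FPKM values in 3316 genes with a single GENCODE M21 transcript of at least 800 nt, less 200 nt for the fragment. Within a tolerance of 0.05, 55.6% to 61.3% of the low values were whole reads, so reads remained estimates and no count test was run. Ratios carry exact binomial 95% intervals on reads of the shortest coding transcript, covering counting error only. A member was counted past the rule at 2-fold and 1 FPKM in the higher library.

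Members and lists were chosen with earlier results of these data known. Named genes were the members, *Has3*, *Hyal3*, *Cemip* (listed as *9930013L23Rik*) and *Tmem2*, listed genes past the rule with at least 5 FPKM, the gate genes, the 3 nearest patterns per member with at least 5 FPKM, and markers beside a member; others are said to be named after their values were seen. Markers for blood endothelial, adipocyte, mural, erythroid and other leukocyte cells were summed as well, at 4.83 to 54.3, 146 to 350, 16.0 to 145, 56.3 to 246 and 2.05 to 12.2 FPKM, respectively. Scalings, minimum, pseudocount, fold and repeated symbols were varied. Python 3.11.15 was used with matplotlib 3.10.9, scipy 1.17.1, pandas 2.3.3 and numpy 2.4.6. Procedures were tested on simulated data. Protein sequences were not used here, and 1 listed gene that met the naming rule is not reported here.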

Additional observations from a re-analysis of the deposited data

Results flagged for a closer look

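*Tnfaip6* differed in opposite directions between the gates of intermediate and low ALDH activity on either side of the CD105 gate. P4 was 2.76-fold above P5 (95% interval 2.65 to 2.87) in CD105- cells, and P2 was 0.903 times P3 (0.881 to 0.925) in CD105+ cells. *Ptx3* differed between CD105+ and CD105- cells in opposite directions at the 2 ALDH levels. P3 was 4.82-fold above P5 (4.49 to 5.19) and P2 was 0.840 times P4 (0.807 to 0.875), although the second ratio was 1.17 with the scaling to *Gapdh*. Both patterns compare the same 4 libraries, 1 for each gate, so these differences between gates were not tested. *Tnfaip6* and *Ptx3* were both lowest of these 4 in P5.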

How the results depend on the processing

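No paired analysis was possible because there was 1 library per gate. Of 567 member ratios recomputed under other scalings, pseudocounts or handling of repeated symbols, 435 stayed within the counting interval of the reported ratio, 132 left it, and no ratio past 2-fold changed direction. Members past the rule numbered 1 for P1 against P2 (2 without a minimum FPKM, which added *Hapln1* on under 7 reads, and 4 at 1.5-fold), 0 for P2 against P3 (1 with a common sum, which added *Cd44*, 1 without a minimum and 1 at 1.5-fold) and 3 for P4 against P5 (5 at 1.5-fold, 1 at 3-fold). They numbered 1 for P2 against P4 (2 with the median of ratios and 2 with quantile normalization, which added *Hyal1*, 3 with *Gapdh* and 3 at 1.5-fold, which added *Hyal1* and *Lyve1*) and 1 for P1 against all others (3 at 1.5-fold). For P3 against P5 they numbered 5 (3 at 3-fold, 4 with a minimum of 5 FPKM, 4 with 1 FPKM added and 7 at 1.5-fold). In that contrast *Hyal1* made the count 6 with the median of ratios, and *Hyal1* and *Has1* made it 7 with *Gapdh*. For P6 against all others the count was 4 and kept within 1.5 times under every alternative run. Scaling to *Gapdh* moved the median of all genes by 0.28, 0.25, 0.21, -0.22, -0.33 and -0.06 on the log2 scale in P1 to P6, the median of ratios by 0.13 in P1 and -0.11 in P6, and quantile normalization by 0.15 in P1. With *Gapdh* the share of higher among all calls went from 39.1% to 67.6% for P2 against P4 and from 53.7% to 80.9% for P3 against P5. Quantile normalization moved it from 18.9% to 30.98% for P1 against P2 and from 23.5% to 45.9% for P1 against all others, where the median of ratios gave 36.5% and *Gapdh* 36.7%. The cause was not tested. *Has2* in P6 rested on 26.0 estimated reads, and adding 1 FPKM changed its ratio to P2 from 0.0338 to 0.191.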
